A study of Arabidopsis thaliana and Marchantia polymorpha and Mesotaenium endlicherianum with 120 samples.

Results

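The effect of warmth at the brighter of 2 lights was described for TAK-1, a male accession of the liverwort Marchantia polymorpha. The tested libraries were 3 of thalli grown at 24 °C and 3 of thalli grown at 16 °C, both in continuous white light of 100 µmol m-2 s-1 (light 100), and all genes of the Marchantia count table were included. These 6 libraries are part of 48 of Marchantia and of 120 in the whole study, which grew 4 green organisms in combinations of temperature and light. Set beside them were 3 libraries of TAK-1 at 24 °C and 3 at 16 °C in light of 10 µmol m-2 s-1 (light 10). For Mppif-1, Mpphy-1 and Mphy5-1, lines each set against TAK-1, there were likewise 3 libraries at 24 °C and 3 at 16 °C in light 100. All thalli were taken 10 days after germination. The labels give each line by its name only, with neither the nature of the allele nor the number of plants pooled, and nothing in them says that the 3 libraries of a group came from separate plants or cultures. The p-values therefore measure the spread between libraries of a group, which may be technical. That spread was estimated over all 48 Marchantia libraries, including those not compared here. No gene name accompanied the Marchantia identifiers, so the targeted genes of the 3 lines could not be checked, nor could marker genes of the thallus.

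Marchantia is a land plant whose main body, the thallus, is a flat haploid sheet that grows from notches at its edge. In flowering plants, warmth within the range that does not harm the plant changes growth and form, and the light receptors called phytochromes, the PIF transcription factors that phytochromes restrain, and HY5, a transcription factor that acts in the light, all take part in that response. In Arabidopsis, phytochrome B also acts as a temperature sensor, because warmth returns its active form to the inactive one. The study asked how light and temperature are combined at the level of transcripts in plants of different lineages.

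Of 20574 genes in the table, 15432 passed the filter on low counts and were tested. Total counts were 43717687 to 44085211 in the 6 libraries and 40041739 to 44085211 in the 48. Of the identifiers that carry the letter V of the male sex chromosome, 82 of 207 had counts in all 6 libraries. The table held 0 identifiers with the letter U of the female one. Among 10576 genes with a mean of at least 5 CPM (counts over library sizes scaled by the TMM method), pairs of libraries at 24 °C differed by a median of 0.0753 to 0.0982 on the log2 scale and had 16 to 31 genes over 2-fold apart. Pairs at 16 °C differed by 0.0963 to 0.103 and had 24 to 88 genes over 2-fold apart. Most of the excess lay in replicate 1 at 16 °C, which was more than 2-fold above both other libraries of its group in 54 genes and below both in 0. In the other 5 libraries, 2 to 12 genes stood above both others of the group. In TAK-1 at 24 °C and light 10, replicate 3 stood above both others in 114 genes, of which 48 were among those 54. The main counts and the named genes that were high in these libraries are given with and without them.

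Warmth changed the transcripts of most of the tested genes in TAK-1 at light 100, mostly by less than 2-fold. In all, 8705 genes were called at an adjusted p under 0.05 (edgeR's quasi-likelihood test with Benjamini-Hochberg adjustment), which is 56.4% of those tested. Transcripts of 4142 genes rose at 24 °C (26.8%) and those of 4563 fell (29.6%). The median change was 0.54 on the log2 scale among genes that rose, -0.56 among genes that fell, and -0.0004 over all genes tested. The 3 libraries at 24 °C did not overlap with the 3 at 16 °C in 10021 genes (64.9%). With library sizes scaled to total counts alone, 4604 genes were higher and 4035 lower, so which direction held more genes depended on the scaling. Without replicate 1 of the 16 °C group, 3853 genes were called higher and 4248 lower.

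Larger changes were less common, and falls outnumbered rises at 4-fold or more. At least 2-fold changes were called in 2093 genes (13.6%), with 984 higher (6.38%) and 1109 lower (7.19%) at 24 °C. At 4-fold or more there were 287 higher and 487 lower, and at 8-fold or more 124 higher and 293 lower. Without replicate 1 of the 16 °C group, 960 genes were at least 2-fold higher and 1003 at least 2-fold lower, 295 and 401 at 4-fold or more, and 132 and 235 at 8-fold or more. With library sizes scaled to total counts alone, 1090 were at least 2-fold higher and 1039 at least 2-fold lower, so the order at 2-fold depended on the scaling. At 4-fold or more that scaling gave 305 higher and 468 lower, and at 8-fold or more 129 and 284. A test against a 2-fold change, rather than against no change, called 880 genes, 372 higher and 508 lower.

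**Figure D1:**
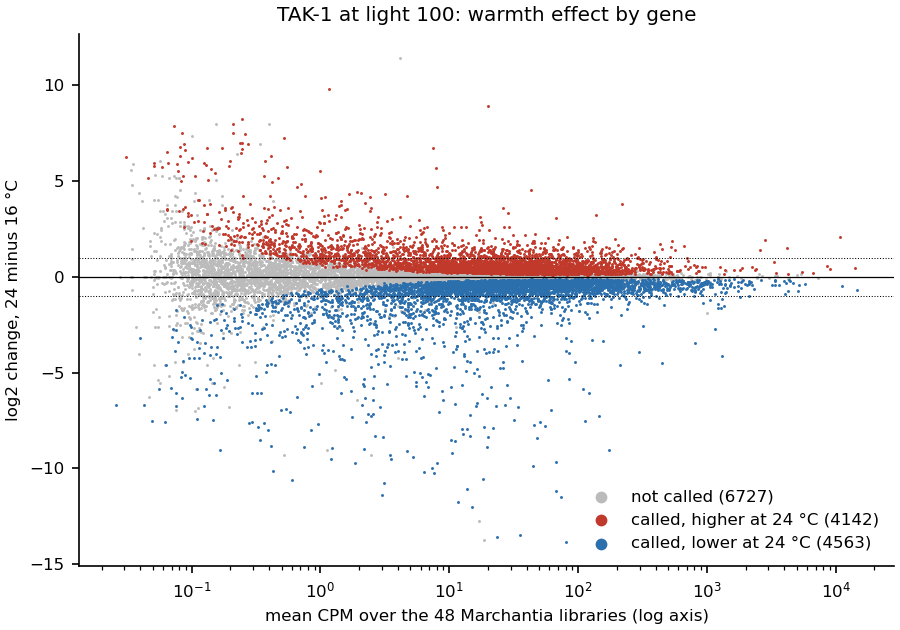
Change in transcript level with warmth in TAK-1 at light 100 (log2, 24 minus 16 °C) against the mean CPM of each gene over the 48 Marchantia libraries (log axis), with 1 point per gene and dotted lines at 2-fold. The 4142 genes called higher and the 4563 called lower lie mostly within the dotted lines, and the largest falls reach further from 0 than the largest rises among genes above 1 CPM.

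The share of the library taken by responding genes shifted by a large amount. Genes called higher took 37.3% ± 0.0751 of all counts at 24 °C and 23.8% ± 0.408 at 16 °C (SD, n = 3 each). Genes called lower took 38.01% ± 0.107 at 24 °C and 52.5% ± 0.472 at 16 °C (SD, n = 3 each). The genes at least 2-fold higher made up 6.97% ± 0.177 of counts at 24 °C and 2.21% ± 0.113 at 16 °C, and those at least 2-fold lower 1.97% ± 0.0515 at 24 °C and 5.42% ± 0.325 at 16 °C (SD, n = 3 each). These sums follow from how the genes were chosen and are given as a description. In bulk thallus, more RNA per cell and more cells of a type cannot be told apart.

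Among the 10 genes with the highest mean CPM over the 6 libraries, Mp2g12030 stood out by its change and is named after its values were seen. It had 18023, 16759 and 17320 CPM at 24 °C, against 4164, 3985 and 4230 CPM at 16 °C, so the groups were far apart and each was tight. Its log2 change was 2.07 ± 0.0904 (SE; edgeR adjusted p = 9.56e-21), and at light 10 it was 1.59 (edgeR adjusted p = 5.45e-17). Of the other 9, 4 rose by 0.22 to 0.55 on the log2 scale, 3 fell by between 0.46 and 0.73, and 2 did not pass the test.

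Calls became more frequent with transcript level and large changes less so. The tested genes were divided into 5 classes of near-equal size by mean CPM over the 48 libraries. From the lowest class to the highest, 24.1%, 52.1%, 61.9%, 69.0% and 74.99% of genes were called, while 21.2%, 21.6%, 10.1%, 7.74% and 7.19% were called with at least a 2-fold change. In the lowest class 431 genes rose and 314 fell, and in the highest 998 rose and 1317 fell. Genes of the lower classes also had fewer counts, and the part of depth in these shares was not tested.

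**Figure D2:**
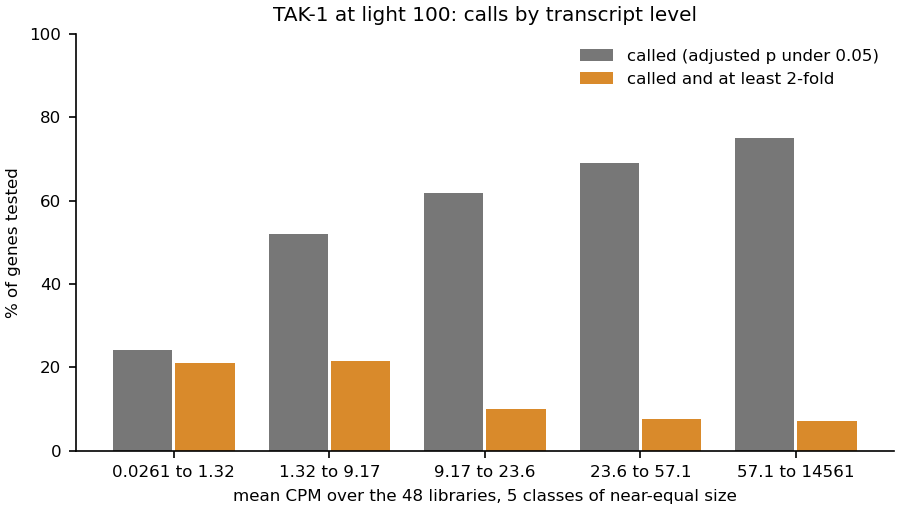
Percent of tested genes called for warmth in TAK-1 at light 100 (grey) and called with at least a 2-fold change (orange), in 5 classes of mean CPM from low to high. The grey bars climb from 24.1% to 74.99% while the orange bars descend from 21.2% to 7.19%.

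Calls were spread evenly over the autosomes that the identifiers name. Between 54.7% and 59.4% of the tested genes of chromosomes 1 to 8 were called. Of 71 tested genes with a V identifier, 13 rose and 9 fell (31.0% called). Of 128 tested genes whose identifier carries no chromosome, 19 rose and 36 fell (43.0% called). A further set of identifiers ends in a letter, and of its 82 tested genes 4 rose and 24 fell, all of them by at least 2-fold. That is 34.1% of the set, against 56.4% of all tested genes called and 13.6% called with at least a 2-fold change. All identifiers of this kind took 0.00976%, 0.00971% and 0.00784% of counts at 24 °C, against 0.0320%, 0.0212% and 0.0153% at 16 °C. The highest share was in replicate 1 at 16 °C, the library that stood apart.

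Genes close to silence at 1 temperature were few. Counting a gene as near 0 when the 3 libraries of a group held at most 3 counts in all and each library of the other group at least 10, 24 genes were near 0 at 16 °C and present at 24 °C. Their mean level at 24 °C was low, with a median over genes of 0.486 CPM and a highest of 2.62 CPM. In the other direction 54 genes were near 0 at 24 °C and present at 16 °C, with a median level at 16 °C of 2.23 CPM and a highest of 57.8 CPM.

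Genes changed at least 2-fold often had a neighbour in the identifier order that changed the same way. Of 764 at least 2-fold higher genes whose next identifier was tested, 159 (20.8%) had a next gene that was also at least 2-fold higher, against 6.06% of all next genes. For the falling genes it was 217 of 855 (25.4%), against 6.88% of all. In 23 places 4 or more consecutive identifiers changed at least 2-fold in 1 direction, 7 places with 36 higher genes and 16 with 83 lower ones. Neighbouring genes that are near-identical copies can share reads, and the sources used here do not give how the authors counted such reads.

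The longest of these stretches each held 9 falling genes, and the stretches are named by their first and last identifiers after their values were seen. On chromosome 2 the 9 genes (Mp2g01610 to Mp2g01690) summed to 31.0, 29.4 and 31.8 CPM at 24 °C, against 231.4, 165.3 and 228.6 CPM at 16 °C. On chromosome 6 the 9 genes (Mp6g03050 to Mp6g03130) summed to 0.898, 0.578 and 1.16 CPM at 24 °C, against 74.7, 20.0 and 13.3 CPM at 16 °C. The first stretch was steady between libraries, whereas the second was highest in replicate 1 at 16 °C, the library that stood apart, although every library at 16 °C lay above every library at 24 °C in both. At light 10, 5 of the 9 genes on chromosome 2 and 0 of the 9 on chromosome 6 were called lower, against 21.6% of all.

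Rising stretches were shorter. On chromosome 4, 8 consecutive genes (Mp4g22230 to Mp4g22300) summed to 16.8, 18.0 and 14.0 CPM at 24 °C, against 2.82, 2.66 and 2.87 CPM at 16 °C. All 8 were also called higher with warmth in Mppif-1, in Mpphy-1 and in Mphy5-1, and 4 of them in TAK-1 at light 10. On chromosome 5, 7 consecutive genes (Mp5g01640 to Mp5g01700) rose by 1.30 to 1.63 on the log2 scale, and all 7 were called higher in each of the 3 lines but 0 at light 10. Of the 7 rising stretches, 4 were called in full in all 3 lines, and of the 16 falling ones, 2. Of all genes tested, 27.5% were called higher and 27% lower in Mppif-1, 29.7% and 28.2% in Mpphy-1, and 31.7% and 31.1% in Mphy5-1. In all 3 lines it was 13.8% higher and 15.7% lower, and in TAK-1 at light 10 21.1% and 21.6%. These are shares of single genes, not of stretches. On chromosome 3, 5 consecutive genes (Mp3g24140 to Mp3g24180) that fell in TAK-1 at light 100 were called lower in 0 cases at light 10 and in 0 cases in any of the 3 lines.

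The genes named here were taken by a fixed rule of size, as identifiers with no known function. Among called genes with a mean of at least 5 CPM over the 6 libraries and no overlap between the groups, Mp2g18790 had the second-highest log2 change and Mp5g05430 the highest. Mp2g18790 had 90.5, 83.4 and 87.7 CPM at 24 °C, against 0.463, 0.992 and 1.02 CPM at 16 °C, with no overlap and little spread. The log2 change was 6.72 ± 0.52 (SE; edgeR adjusted p = 3.05e-11). At light 10 the same gene was at 0.0951, 0 and 0.0912 CPM at 24 °C and at 0, 0 and 0.149 CPM at 16 °C, so it was close to 0 at both temperatures in the dimmer light. The warmth effect at light 100 exceeded that at light 10 by 6.43 ± 1.99 in log2 units (SE; edgeR adjusted p = 0.0156).

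The level of Mp2g18790 at 24 °C and light 100 also differed widely between lines. It was 4.56, 5.89 and 4.88 CPM in Mppif-1, 0.0393, 0 and 0.0982 CPM in Mpphy-1, and 36.8, 24.3 and 15.3 CPM in Mphy5-1, all below the values in TAK-1. At 16 °C and light 100 it was at 0 in all 3 libraries of Mppif-1 and of Mpphy-1, and at 0.132, 0 and 0 CPM in Mphy5-1. With warmth it was at least 207.5-fold higher in Mppif-1, a bound taken against 3 counts over the group, and 9.06 ± 0.70 log2 units higher in Mphy5-1 (SE; edgeR adjusted p = 1.36e-11). In Mpphy-1 warmth did not pass the test (edgeR adjusted p = 0.193). Differences from the warmth effect of TAK-1 did not pass the test in any of the 3 lines, at 4.06 ± 2.35 in Mppif-1, -2.66 ± 14.99 in Mpphy-1 and 2.34 ± 1.04 in Mphy5-1 in log2 units (SE; edgeR adjusted p = 0.249, 0.920 and 0.155 in that order), and these errors leave wide ranges. The fitted differences in Mppif-1 and Mpphy-1 involve groups at 16 °C without counts and are no bounds.

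Mp5g05430 had an uneven pattern. It had 25.3, 22.5 and 10.6 CPM at 24 °C, against 0.0661, 0.0226 and 0.0226 CPM at 16 °C. The log2 change was 8.92 ± 3.25 (SE; edgeR adjusted p = 0.0196), and leaving out any of the libraries at 16 °C gave adjusted p-values of 0.0578 to 0.0604. A fit of the 6 libraries alone, without the other groups in which the gene varied, gave 8.94 ± 0.68 (SE; edgeR adjusted p = 0.000184). At light 10 it was at 38.9, 35.8 and 0.0912 CPM at 24 °C and at 22.02, 0.0762 and 20.8 CPM at 16 °C, so it moved between near 0 and far higher levels within both groups.

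Among called genes with a mean of at least 5 CPM and no overlap between the groups, Mp2g26440 and Mp2g26460 had the lowest fitted changes, and they lie close together in the identifier order. Mp2g26440 was at 0 in all 3 libraries at 24 °C, against 87.0, 25.4 and 14.6 CPM at 16 °C, which is at least 1962-fold lower (edgeR adjusted p = 6.01e-06). Mp2g26460 was likewise at 0 in all 3 at 24 °C, against 69.2, 23.6 and 13.2 CPM at 16 °C, at least 1638-fold lower (edgeR adjusted p = 2.14e-05). Both bounds are taken against 3 counts over the group. Both genes were highest at 16 °C in replicate 1. Without that library the bounds were at least 928-fold lower for Mp2g26440 and at least 854-fold lower for Mp2g26460 (edgeR adjusted p = 6.06e-05 and 0.000143 in that order). A fit of the 6 libraries alone gave adjusted p-values of 0.0596 for Mp2g26440 and 0.0519 for Mp2g26460.

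In the dimmer light the same pair was called higher with warmth, a call that rested on 1 library. At light 10 Mp2g26440 had 0.927, 1.27 and 20.3 CPM at 24 °C, against 0.43, 0 and 0.223 CPM at 16 °C, a log2 change of 5.09 ± 1.52 (SE; edgeR adjusted p = 0.00725). Mp2g26460 had 0.618, 0.464 and 19.1 CPM at 24 °C, against 0.101, 0 and 0.446 CPM at 16 °C (log2 change 5.18 ± 1.57, SE; edgeR adjusted p = 0.00884). Both genes were highest in replicate 3 at 24 °C, the library that stood apart at light 10. Without it neither passed the test at light 10, with 2.32 ± 1.92 for Mp2g26440 and 1.54 ± 2.07 for Mp2g26460 in log2 units (SE; edgeR adjusted p = 0.370 and 0.604 in that order). The warmth effects of the 2 lights differed for Mp2g26440 (edgeR adjusted p = 5.81e-06) and for Mp2g26460 (edgeR adjusted p = 1.53e-05), and without both libraries that stood apart they also differed (edgeR adjusted p = 0.00159 for Mp2g26440 and 0.00712 for Mp2g26460).

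The 54 genes that set replicate 1 at 16 °C apart are given by their sum, and by counts of those called, in TAK-1 and in the 3 lines. Their summed level was 93.2, 86.7 and 86.6 CPM at 24 °C and light 100, against 4234, 1311 and 960.2 CPM at 16 °C and light 100. Even the lowest of the 16 °C libraries was thus far above all at 24 °C. Of the 54, 50 were called lower with warmth, 49 of them by at least 2-fold, against 29.6% and 7.19% of all genes tested. They were chosen as high in a 16 °C library of this comparison, so these counts largely follow from the choice and are descriptive. At light 10 the sums were 239.2, 260.7 and 1415 CPM at 24 °C, against 106.3, 95.9 and 98.8 CPM at 16 °C, and 38 of the 54 (70.4%) were called higher and 3 (5.56%) lower, against 21.1% and 21.6% of all genes tested. Replicate 3 at 24 °C and light 10 held much of that sum, and 48 of the 54 were among the genes that set it apart.

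The 54 genes were followed in the 3 lines as well, in libraries that had no part in choosing them, and their calls were higher in 1 line and mostly lower in the other two. In Mpphy-1 at light 100 the sums were 12246, 9834 and 8632 CPM at 24 °C, against 4213, 4321 and 3978 CPM at 16 °C, and 24 genes (44.4%) were called higher with warmth and 0 lower, against 29.7% and 28.2% of all genes tested. In Mppif-1 they were 619.0, 192.8 and 684.6 CPM at 24 °C, against 2090, 660.0 and 4080 CPM at 16 °C, with 0 higher and 36 (66.7%) lower, against 27.5% and 27% of all. In Mphy5-1 they were 186.9, 166.4 and 225.9 CPM at 24 °C, against 585.6, 1693 and 700.9 CPM at 16 °C, with 2 (3.70%) higher and 39 (72.2%) lower, against 31.7% and 31.1% of all. The groups of Mpphy-1 and Mphy5-1 did not overlap, whereas in Mppif-1 the highest library at 24 °C lay above the lowest at 16 °C.

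**Figure D3:**
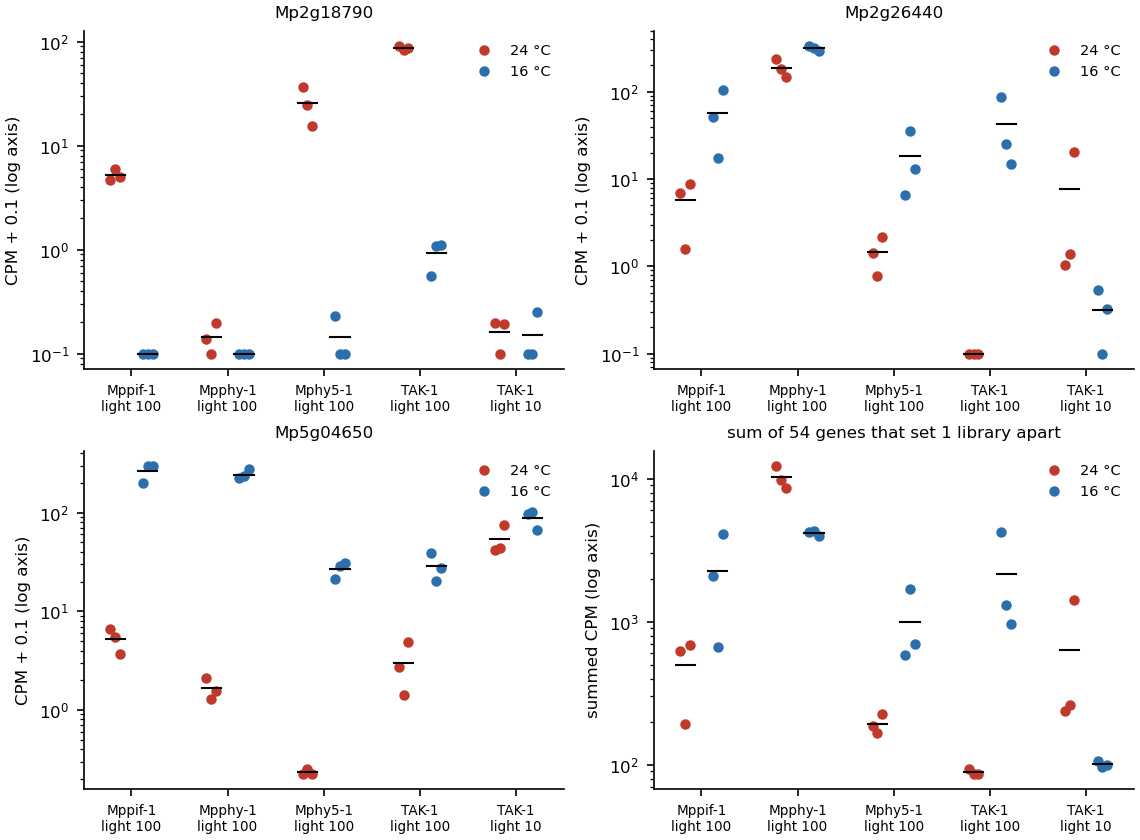
Level in each library (points) and the mean of each group of 3 (bars) for Mp2g18790, Mp2g26440 and Mp5g04650 (CPM + 0.1, log axes) and for the sum of the 54 genes that set 1 library apart (CPM, log axis), with 24 °C (red) left of 16 °C (blue). Mp2g18790 is high in TAK-1 at 24 °C and light 100 (83.4 to 90.5 CPM) and near 0 at light 10. Mp2g26440 and the 54 genes are low in TAK-1 at 24 °C and light 100 and high throughout in Mpphy-1.

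Warmth changed fewer genes at light 10 than the 8705 of light 100, and many genes responded differently at the 2 lights. At light 10, 6599 genes were called (42.8% of those tested), 3259 higher (21.1%) and 3340 lower (21.6%) at 24 °C. At least 2-fold changes were called in 595 higher (3.86%) and 629 lower genes (4.08%). Without replicate 3 at 24 °C and light 10, 2882 genes were higher and 2937 lower, 494 and 582 of them by at least 2-fold. With library sizes scaled to total counts alone, 4423 were higher and 2288 lower, 714 and 548 of them by at least 2-fold. The balance of directions at light 10 thus depended on the scaling. The difference between the warmth effects, coded as light 100 minus light 10 and tested as an interaction on libraries that the 2 effects do not share, was called in 4561 genes (29.6%). It was positive in 2139 (13.9%) and negative in 2422 (15.7%), and at least 2-fold in 560 (3.63%) and 635 (4.11%). Without both libraries that stood apart, 3603 genes were called, of which 488 were positive and 442 negative by at least 2-fold, so the order of the 2 directions at that size rested on these libraries. Scaling to total counts alone gave 1777 positive and 2716 negative differences, so their balance also depended on the scaling.

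Genes that rose at light 100 mostly rose or were not called at light 10. Of the 4142 called higher at light 100, 2124 were also called higher at light 10, which is 51.3% of the first list and 65.2% of the 3259 of the second. Of the 4563 called lower, 2272 were shared, 49.8% of the first list and 68.0% of the second. Opposite calls were made for 224 genes that rose at light 100 and fell at light 10 and for 261 that fell at light 100 and rose at light 10, and the difference between lights was called for each of these 485 genes. Of the 261, 46 were among the 120 genes that set either library apart (0.778% of genes tested).

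A call at 1 light and not at the other was often no called difference. Of 1794 genes called higher at light 100 and not called at light 10, 835 differed between lights, and of 2030 called lower and not called at light 10, 1099 differed. Conversely, 1718 genes were called at light 10 alone. Among genes called in the same direction at both lights, the effect at light 100 was the more positive in 501 and the less positive in 62 of the 2124 that rose, and the more negative in 649 and the less negative in 126 of the 2272 that fell. Across the 15432 genes the log2 effects at the 2 lights had a Spearman correlation of 0.470 and a Pearson correlation of 0.0453, as a description over genes, which are not independent and share the scaling of the fit.

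**Figure D4:**
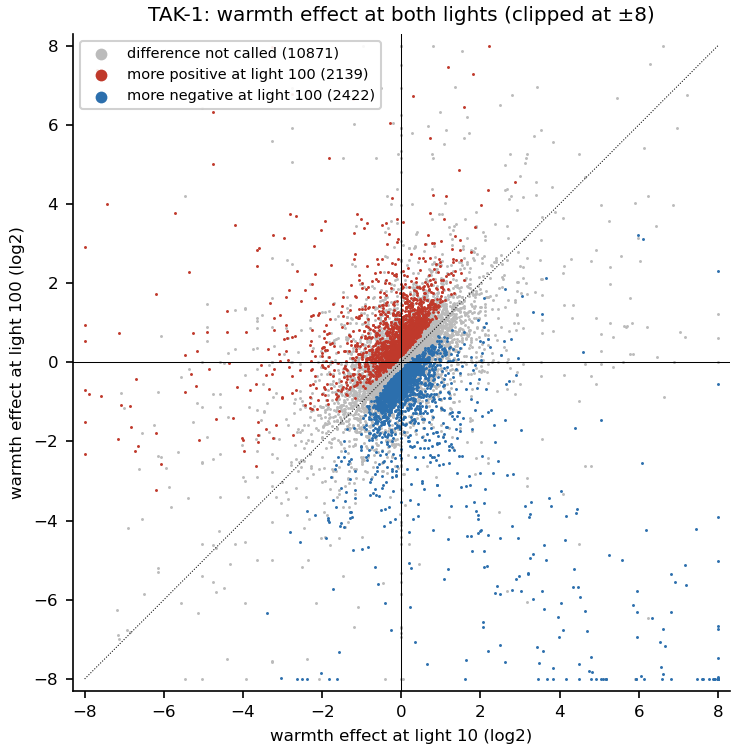
Warmth effect (log2, 24 minus 16 °C) of each tested gene in TAK-1 at light 100 (vertical) against light 10 (horizontal), clipped at 8 in either direction, with equality dotted. Red marks the 2139 genes with a more positive effect at light 100 and blue the 2422 with a more negative one, and a scatter of blue points at the lower right fell at light 100 and rose at light 10.

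Among the positive differences between lights, Mp4g22700 is described. It had 15.9, 14.5 and 12.2 CPM at 24 °C, against 7.51, 7.42 and 7.33 CPM at 16 °C at light 100, and 0, 0 and 0.0456 CPM at 24 °C, against 6.32, 3.53 and 6.77 CPM at 16 °C at light 10. Its change at light 100 did not pass the test (0.93 ± 0.52, SE; edgeR adjusted p = 0.126), while that at light 10 was -8.24 ± 1.01 (SE; edgeR adjusted p = 4.46e-08). The difference between lights was called (edgeR adjusted p = 2.86e-07).

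The strongest negative differences, of Mp7g08620 and Mp8g15370, came from genes that switch between 0 and well over 5 CPM within groups. At light 100 Mp7g08620 was at 0 in all 3 libraries at 24 °C, against 58.6, 0 and 61.0 CPM at 16 °C, and at light 10 it was at 0, 27.6 and 0 CPM at 24 °C, against 0 in all 3 at 16 °C. Mp8g15370 was at 0 in all 3 libraries at 24 °C and light 100, against 30.3, 29.2 and 0 CPM at 16 °C, and at light 10 at 0, 0 and 30.7 CPM at 24 °C, against 0 in all 3 at 16 °C. The edgeR adjusted p-values of 0.0373 for Mp7g08620 and 0.0317 for Mp8g15370 each rest on 1 library at 24 °C and light 10, and the calls were lost on leaving out any 1 of 9 of the 12 libraries for Mp7g08620 and any 1 of 7 for Mp8g15370. In all, 45 tested genes had 0 counts in 1 library and at least 5 CPM in another of the same group, in any of the 16 Marchantia groups. Of these 45, 7 were called for warmth at light 100, against 56.4% of all genes tested.

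The genes that changed at least 2-fold in TAK-1 at light 100 were next followed in the libraries of other comparisons. The 984 higher genes had a median warmth effect at light 100 of 1.32 on the log2 scale in Mppif-1, 1.13 in Mpphy-1 and 1.63 in Mphy5-1, against 1.53 in the TAK-1 libraries that chose them, and of 0.67 in TAK-1 at light 10. Over all genes tested the medians were between 0.006 and 0.05 in these 4 other comparisons. Their libraries took part in the fit's scaling and estimate of spread, so the calls are not independent of the choice. In Mppif-1, where 54.5% of all tested genes were called (27.5% higher and 27% lower), 761 of the 984 were called higher and 10 lower. In Mpphy-1, where 57.8% of all were called (29.7% higher and 28.2% lower), 688 were higher and 39 lower. In Mphy5-1, where 62.8% of all were called (31.7% higher and 31.1% lower), 844 were higher and 0 lower. At light 10, 494 were called higher and 55 lower, against 21.1% and 21.6% of all genes tested.

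The falling genes were shared less evenly. The 1109 genes at least 2-fold lower had a median warmth effect at light 100 of -0.94 in Mppif-1, -0.35 in Mpphy-1 and -1.53 in Mphy5-1, against -1.82 in the TAK-1 libraries that chose them, and of -0.49 in TAK-1 at light 10. In Mppif-1, 63 were called higher and 623 lower, against 27.5% and 27% of all genes tested. In Mpphy-1, 207 were higher and 436 lower, against 29.7% and 28.2% of all. In Mphy5-1, 8 were higher and 834 lower, against 31.7% and 31.1% of all. Without the 93 of these genes that set a library apart, the medians were -0.92 in Mppif-1, -0.39 in Mpphy-1 and -1.48 in Mphy5-1. At light 10, 138 of the 1109 were called higher and 487 lower, against 21.1% and 21.6% of all genes tested. Without those 93 genes it was 92 and 481 of the 1016 left. The Mpphy-1 values of both lists are relative to the TMM scaling. With total counts alone, the all-gene median of the Mpphy-1 minus TAK-1 difference was 0.27 on the log2 scale, against 0.01 with TMM. The lists were not followed under that scaling.

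Some genes of each list were called the same way in all 4 other comparisons, 342 of the 984 higher genes (34.8%) and 223 of the 1109 lower ones (20.1%). Over all 15432 genes tested, 7.69% were called higher and 9.37% lower in all 4. Calls in all 3 lines at light 100 were made for 571 of the higher (58.03%) and 312 of the lower genes (28.1%), against 13.8% and 15.7% of all genes tested. The number called the same way in none of the 4 was 45 for the higher (4.57%) and 142 for the lower genes (12.8%), against 49.3% and 51.9% of all.

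**Figure D5:**
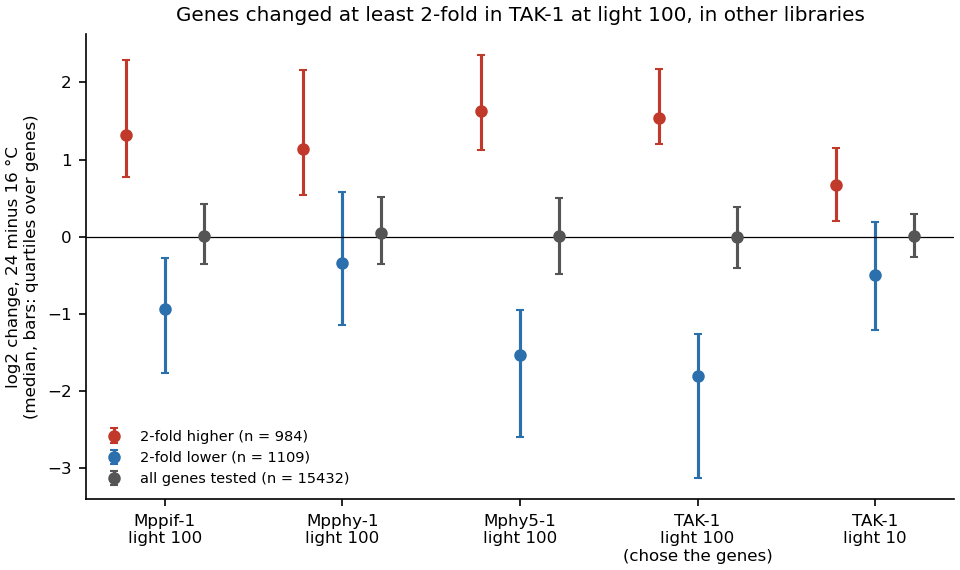
Median warmth effect (log2, 24 minus 16 °C, with bars from the lower to the upper quartile over genes) of the 984 genes at least 2-fold higher (red) and the 1109 at least 2-fold lower (blue) in TAK-1 at light 100, and of all 15432 genes tested (grey). The red medians lie between 0.67 and 1.63 and the blue ones between -0.35 and -1.82, and the TAK-1 values at light 100 chose the genes.

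The difference between each line's warmth effect and that of TAK-1 at light 100 was tested as an interaction, coded as line minus TAK-1. The 3 differences share the TAK-1 libraries and are given side by side. In Mppif-1 the warmth effect differed in 3073 genes (19.9%), 1759 of them more positive (11.4%) and 1314 more negative (8.51%) than in TAK-1, and 829 (5.37%) and 157 (1.02%) by at least 2-fold. In Mpphy-1 it differed in 5698 genes (36.9%), 2859 more positive (18.5%) and 2839 more negative (18.4%), and 1497 (9.7%) and 547 (3.54%) by at least 2-fold. In Mphy5-1 it differed in 1925 genes (12.5%), 818 more positive (5.3%) and 1107 more negative (7.17%), and 220 (1.43%) and 93 (0.603%) by at least 2-fold. Without replicate 1 of TAK-1 at 16 °C and light 100, the genes called numbered 2646 in Mppif-1, 5191 in Mpphy-1 and 1413 in Mphy5-1.

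The balance of these differences depended on the scaling of the libraries. With total counts alone, 2073 were more positive and 798 more negative in Mppif-1, 5491 and 1526 in Mpphy-1, and 976 and 770 in Mphy5-1. For Mpphy-1 that scaling moved the median of all genes to 0.27 on the log2 scale, against 0.01 with TMM, and directions there are relative to that shift.

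For Mppif-1 and Mphy5-1 the highest and the lowest difference are named, and for Mpphy-1 the highest. In Mppif-1 the highest was that of Mp2g26450, which lies between the 2 strongly falling genes of chromosome 2. It had 14.7, 2.17 and 14.7 CPM at 24 °C, against 43.1, 13.6 and 84.6 CPM at 16 °C in Mppif-1, and 0 in all 3 libraries at 24 °C, against 73.1, 16.7 and 8.47 CPM at 16 °C in TAK-1. The difference passed the test (edgeR adjusted p = 0.0302), but was lost on leaving out any 1 of 7 of the 12 libraries, with adjusted p-values up to 0.104. In Mpphy-1 the gene had 202, 143 and 96.6 CPM at 24 °C, against 85.4, 80.6 and 72.9 CPM at 16 °C. Its warmth effect differed from that of TAK-1 there too (edgeR adjusted p = 0.000309), and not in Mphy5-1 (edgeR adjusted p = 0.206). Without replicate 1 of TAK-1 at 16 °C the adjusted p for Mpphy-1 was 0.00194 (edgeR). The lowest difference in Mppif-1 was that of Mp5g05430 (edgeR adjusted p = 0.00262). It had 0.047, 0.0234 and 0.049 CPM at 24 °C, against 0.072, 80.8 and 54.8 CPM at 16 °C in Mppif-1. The gene thus moved between near 0 and far higher levels within the 16 °C group. In Mpphy-1 it did so at both temperatures, with 0.0589, 0.0192 and 29.7 CPM at 24 °C, against 39.8, 0.0475 and 0.0234 CPM at 16 °C. Its groups in TAK-1 and Mphy5-1 at light 100 showed no such moves. Whether the called difference reflects warmth or such moves was not tested.

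In Mpphy-1 the highest difference was that of Mp8g03450, which warmth moved in opposite directions in the line and in TAK-1. It had 66.6, 42.2 and 29.9 CPM at 24 °C, against 0.329, 0.19 and 0.445 CPM at 16 °C in Mpphy-1, and 0 in all 3 libraries at 24 °C, against 28.9, 4.98 and 1.90 CPM at 16 °C in TAK-1 (edgeR adjusted p of the difference = 0.000176). Without replicate 1 of TAK-1 at 16 °C the edgeR adjusted p of the difference was 0.000986, and that of the fall in TAK-1 was 0.0449, against 0.00544 with all libraries.

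In Mphy5-1 the highest difference was that of Mp3g24150. It had 2.42, 1.70 and 1.39 CPM at 24 °C, against 2.30, 1.87 and 1.11 CPM at 16 °C in Mphy5-1, and 0.701, 1.26 and 0.621 CPM at 24 °C, against 83.4, 40.1 and 18.7 CPM at 16 °C in TAK-1. The temperatures overlapped in Mphy5-1 and were far apart in TAK-1, and warmth effects in Mphy5-1 and TAK-1 differed by 5.84 ± 1.43 in log2 units (SE; edgeR adjusted p = 0.00583). Without replicate 1 of TAK-1 at 16 °C the difference was 5.15 ± 1.45 (SE; edgeR adjusted p = 0.0217). The warmth effect of Mp3g24150 also differed from that of TAK-1 in Mppif-1 (edgeR adjusted p = 0.0211, and 0.0700 without that library). In Mpphy-1 it differed as well (edgeR adjusted p = 2.67e-07, and 1.01e-06 without that library). Mpphy-1 had 7.99, 10.1 and 13.2 CPM at 24 °C, against 0.047, 0 and 0 CPM at 16 °C. Mp3g24150 belongs to the stretch of 5 genes on chromosome 3 named above.

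The lowest difference in Mphy5-1 was that of Mp5g04650, which fell with warmth in every line at light 100. It had 0.126, 0.154 and 0.127 CPM at 24 °C, against 20.9, 28.4 and 30.8 CPM at 16 °C in Mphy5-1, and 2.65, 1.31 and 4.80 CPM at 24 °C, against 39.2, 20.3 and 27.3 CPM at 16 °C in TAK-1. The levels at 16 °C overlapped between Mphy5-1 and TAK-1, and those at 24 °C did not. The log2 change with warmth was -7.59 ± 0.58 in Mphy5-1 and -3.31 ± 0.38 in TAK-1 (SE), and the difference was -4.28 ± 0.82 (SE; edgeR adjusted p = 0.000627). Without replicate 1 of TAK-1 at 16 °C and light 100 the difference was -4.56 ± 0.82 (SE; edgeR adjusted p = 0.000477). Mppif-1 had 6.44, 5.33 and 3.60 CPM at 24 °C, against 198, 296 and 294 CPM at 16 °C, and Mpphy-1 had 2.00, 1.19 and 1.47 CPM at 24 °C, against 223, 233 and 274 CPM at 16 °C. In both, the level at 16 °C was well above that in TAK-1. At light 10 in TAK-1 it had 41.7, 43.4 and 74.8 CPM at 24 °C, against 97.4, 101.2 and 66.1 CPM at 16 °C, with overlap between the temperatures and a change that did not pass the test (edgeR adjusted p = 0.0584). The highest value at 24 °C was that of replicate 3, the library that stood apart at light 10. Without it the fall passed the test, at -1.05 ± 0.34 in log2 units (SE; edgeR adjusted p = 0.0152).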

How the data were processed

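Thallus RNA came from the NucleoSpin RNA Plant kit of Macherey-Nagel and was sequenced by BGI on DNBseq as paired reads of 100 bases, per the labels' protocols. Per the submitters' processing notes, HISAT2 2.1.0 and FastQC 0.11.5 were used. Which program counted the reads, on which genome build and annotation, and whether strand was used, is not given in the sources used here. Whole-number read counts per gene and library were deposited by the authors in 1 Marchantia table with no gene names, and 1651 of its 20574 genes had no counts in any library.

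All 48 Marchantia libraries were fitted together in R 4.3.3 with edgeR 4.0.16 and limma 3.58.1, as 16 groups with a mean each and 32 residual degrees of freedom. Genes were kept by filterByExpr (minimum count 10), library sizes were scaled by TMM (factors 1.0036 to 1.0641 in the 6 libraries compared), and fits were robust. P-values of the quasi-likelihood F test were adjusted over 15432 genes by the Benjamini-Hochberg method, with 0.05 as the limit for a call. The common biological coefficient of variation was 0.139. The SE of a log2 change is the change divided by the square root of its F value. A fold against a group without counts is a bound taken against 3 counts over the group, and such bounds cover counting error only.

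The genes to name were the 2 highest and 2 lowest log2 changes for warmth and for the difference between lights, and the highest and lowest for each line, among called genes with a mean of at least 5 CPM over the libraries compared and, for warmth, no overlap between groups. Some genes that this rule takes are not reported here. The comparisons, lists and alternatives were chosen with earlier results of these data known. The alternatives were DESeq2 1.42.0, other scalings, no filter, fits of fewer libraries, a replicate block and each library left out in turn. Leaving out both libraries that stood apart, or the genes that switch between 0 and at least 5 CPM within a group, was chosen after seeing the data. Replicate numbers were not taken to pair libraries. Lists of genes by function and thallus markers were not applied, since they need gene names.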

Additional observations from a re-analysis of the deposited data

Results flagged for a closer look

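Each result here is a warmth effect that differed between groups by a test of the difference itself. The effect in TAK-1 at light 100 differed from that at light 10 in 4561 genes. Among the named genes the fitted difference, light 100 minus light 10 on the log2 scale, was 9.17 for Mp4g22700, -25.38 for Mp7g08620 and -24.53 for Mp8g15370. Several of these groups held no counts, so the fitted sizes depend on the prior count and are no bounds, and the last 2 genes switch between 0 and well over 5 CPM within groups.

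The warmth effect at light 100 differed from that of TAK-1 in 3073 genes in Mppif-1, 5698 in Mpphy-1 and 1925 in Mphy5-1, in comparisons that share the TAK-1 libraries. The fitted differences, line minus TAK-1 on the log2 scale, were 11.30 for Mp2g26450 and -18.97 for Mp5g05430 in Mppif-1, 19.16 for Mp8g03450 in Mpphy-1, and 5.84 for Mp3g24150 and -4.28 for Mp5g04650 in Mphy5-1. The first 3 of these involve groups at or near 0 and are no bounds. Mp5g05430 also moved between near 0 and far higher levels within the cooler group of Mppif-1.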

How the results depend on the processing

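Of 104 alternatives for total counts of genes called, 103 stayed within 1.5 times the value reported. The exception was a test against a 2-fold change in place of a fold threshold on calls against no change, which gave 880 genes in place of 2093, because it asks for more. Counts in 1 direction moved further, since scaling to total counts gave 798 genes in place of 1314 with a more negative effect in Mppif-1, and 5491 in place of 2859 with a more positive and 1526 in place of 2839 with a more negative one in Mpphy-1. Leaving out 1 library at a time gave 7958 to 8125 genes called for warmth in TAK-1 at light 100 and 1956 to 2091 at 2-fold or more. It gave 3846 to 4288 for the difference between lights, 2528 to 3004 for Mppif-1, 5191 to 5500 for Mpphy-1 and 1361 to 1910 for Mphy5-1. DESeq2 called 8767 genes for warmth, of which 8548 were also called in the same direction by edgeR. Same-numbered libraries at 24 and 16 °C had deviations correlated by 0.121, 0.0835 and 0.0282, so the numbers were not taken as pairs. A replicate block gave 8719 calls for warmth, 2085 at 2-fold or more, 4570 for the difference between lights, and 3110, 5711 and 1980 for Mppif-1, Mpphy-1 and Mphy5-1.

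Of 207 alternatives for the named genes, 174 kept the call, 33 lost it and 0 reversed. The losses lay in Mp5g05430, Mp2g26440, Mp2g26460, Mp7g08620, Mp8g15370 and Mp2g26450, most of which were at or near 0 in a whole group, and the cause was not tested. In the lowest class of transcript level 24.1% of genes were called for warmth at light 100.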

Other observations

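The 54 genes that set replicate 1 of TAK-1 at 16 °C and light 100 apart also varied between libraries of the 3 lines at light 10, which no comparison above uses. Their summed level in Mppif-1 was 2163, 512.9 and 694.3 CPM at 24 °C, against 94.6, 90.7 and 99.0 CPM at 16 °C. In Mpphy-1 it was 21335, 11967 and 23017 CPM at 24 °C, against 2942, 3299 and 3234 CPM at 16 °C. In Mphy5-1 it was 275.2, 814.7 and 282.7 CPM at 24 °C, against 112.7, 131.4 and 122.7 CPM at 16 °C. At light 10 each of these lines had every library at 24 °C above every library at 16 °C, as did TAK-1, whereas at light 100 the order was the reverse in TAK-1 and Mphy5-1. The genes were chosen after their values were seen, and no test was made.

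Genes with 0 counts in 1 library and at least 5 CPM in another of the same group numbered 12 among the TAK-1 libraries at 24 °C and light 100 and 14 among those at 16 °C and light 100, 19 in either. Leaving out all 45 such genes of the 16 groups gave 8715 genes called for warmth.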
